A study of Mus musculus with 4 samples.

Results

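The 10 genes described here make the MHC class I molecule and the machinery that supplies it with peptides. They are a list of names, with no threshold on a measured value: the light chain gene B2m, the heavy chain genes H2-K1 and H2-D1, the peptide transporter and loading genes Tap1, Tap2 and Tapbp, the immunoproteasome subunit genes Psmb8, Psmb9 and Psmb10, and Nlrc5. They were 10 of the 24016 gene symbols in the count tables, and each was read from its transcript of highest summed count. All 10 passed the filter on low counts. RNA was sequenced from hematopoietic stem cells of C57BL/6 mice aged 4 months, sorted from bone marrow as lineage-negative, Sca-1+, c-Kit+, CD150+, CD34- and Flt3- cells. There were 2 libraries from wild-type (WT) mice and 2 from NHD13+ mice. The NHD13 transgene encodes a NUP98-HOXD13 fusion protein and models myelodysplastic syndrome; in the published line the Vav1 promoter drives it in blood cells. Whether a group's libraries are separate mice or pools is not stated in the labels, so its errors and p-values cover only spread between libraries, which may be technical. The comparison asked how expression of these genes in NHD13 stem cells differs from that in WT.

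MHC class I molecules carry short peptides from the inside of a cell to its surface, where CD8+ T cells read them and NK cells check that class I is present. The proteasome cuts proteins into peptides, TAP moves the peptides into the endoplasmic reticulum, and tapasin with other chaperones loads them onto a heavy chain paired with beta-2-microglobulin. In cells of the immune system and after interferon, 3 subunits of the proteasome core (Psmb8, Psmb9 and Psmb10) take the places of Psmb5, Psmb6 and Psmb7 and alter which peptides are cut. NLRC5 is the transactivator of class I genes, as CIITA is of class II genes, and acts through a conserved promoter module.

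Libraries held 35025974 to 48423689 counts with 1 transcript per gene. The gate genes Kit and Slamf1 were present in all 4 libraries. Of the list of 10 stem cell genes that holds them, 1 had a log2 fold change of NHD13 against WT above 0. The median was -0.78. By the edgeR test described below, 3 of the 10 were called lower and 0 higher, beside 2.22 and 2.07 percent of all genes. Markers of other cell types differed between the libraries. Library-scaled counts (CPM) summed over 10 late granulocyte markers were 2857 in NHD13 library 1, 378 in NHD13 library 2 and 284 to 329 in WT. Over 16 T and NK cell markers they were 271 in NHD13 library 2, 60.4 in NHD13 library 1 and 70.7 to 75.4 in WT. Over 12 dendritic cell and monocyte markers they were 289 and 111 in NHD13 against 21.3 to 41.7 in WT, over 9 B cell markers 94.5 and 105 against 76.5 to 84.6, and over 10 stem cell genes 2166 and 2640 against 3572 to 3708. Over 12 stroma and endothelium markers they were lower in NHD13, at 41.9 and 102 against 175 and 245. No marker of these lists was at 0 in all 4 libraries. The part of such cells in the results was not tested. In these bulk samples, fewer cells of a type and less RNA per cell cannot be told apart.

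Promoter sequence is shown first, as a description of the members. Its relation to the fold changes given below was not tested. Promoters are windows from 250 bases before to 50 after the start site, from RefSeq on GRCm38.p6, and 8 of the 10 members had one. B2m, H2-K1 and H2-D1 each held the X2 box core (TGACG, bound by CREB and ATF proteins), followed by an inverted CCAAT box (the Y box, bound by NF-Y), with first bases exactly 25 apart. These 2 boxes are part of the module through which NLRC5 and CIITA act. Among 32851 promoter windows, 31 (0.0944 percent) held the pair at that spacing on either strand, and 78 (0.237 percent) held it 24 to 27 bases apart. Of 160 genes on the pathway lists below that had a promoter window, 6 held it at 24 to 27 bases, and all 6 were the light chain gene or MHC genes. The spacing was chosen after the sequences were seen. The stretches from the first box to the second are given 5′ to 3′ on the gene's strand, with the boxes in capitals.
B2m, chr2:122147609-122147638, plus strand: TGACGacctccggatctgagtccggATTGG
H2-K1, chr17:34000359-34000388, minus strand: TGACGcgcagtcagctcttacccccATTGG
H2-D1, chr17:35262993-35263022, plus strand: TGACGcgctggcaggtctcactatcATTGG
H2-M3, chr17:37270188-37270217, plus strand: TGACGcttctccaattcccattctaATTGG
H2-Q7, chr17:35439091-35439119, plus strand: TGACGtgtaacagttctcacccctATTGG
H2-Aa, chr17:34287867-34287897, minus strand: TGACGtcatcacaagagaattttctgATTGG
H2-M3 and H2-Q7 are further class I heavy chain genes and H2-Aa is a class II gene.

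The windows of Tap1, Tapbp, Psmb8, Psmb9 and Psmb10 did not hold the pair at that spacing; Tap2 and Nlrc5 are the members with no window. Tap1 and Psmb9 are transcribed away from each other from start sites 226 bases apart, and their windows overlap by 275 bases, so the Tap1 window below is nearly all of the Psmb9 window too, read from the other strand. Psmb8, the next gene along, has a window of its own. Capitals mark TGACG (20.8 percent of all windows hold it on either strand), CCAAT (37.4 percent) and TTCNNNGAA, the core of the interferon gamma-activated site (GAS) (8.3 percent).
Tap1, chr17:34187306-34187605, plus strand: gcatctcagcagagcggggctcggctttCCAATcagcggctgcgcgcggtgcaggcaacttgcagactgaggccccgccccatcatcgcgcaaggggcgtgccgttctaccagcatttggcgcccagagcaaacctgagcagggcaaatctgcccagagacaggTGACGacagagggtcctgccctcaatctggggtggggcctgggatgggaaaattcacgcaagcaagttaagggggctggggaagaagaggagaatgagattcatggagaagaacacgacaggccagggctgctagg
Psmb8, chr17:34197945-34198244, plus strand: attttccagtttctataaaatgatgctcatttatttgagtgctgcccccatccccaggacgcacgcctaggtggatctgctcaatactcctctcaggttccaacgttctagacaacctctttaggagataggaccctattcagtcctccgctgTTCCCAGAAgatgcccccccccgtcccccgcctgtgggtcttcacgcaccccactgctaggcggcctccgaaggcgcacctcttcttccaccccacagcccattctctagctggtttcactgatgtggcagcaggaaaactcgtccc
Strict patterns of the interferon-stimulated response element (GAAA repeated after any 2 bases, in 3.44 percent of windows) and of the kappaB site (5.56 percent) matched in B2m, read as GAAACTGAAA and GGAAAGTCCC. They do not cover variant forms of these elements, so the other windows were not shown to lack them. A match describes letters in a window and is not a measured binding site.

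In NHD13 cells Psmb8, Tap1, Tap2, Psmb9 and Nlrc5 stood 1.31- to 1.52-fold above WT. The other members stood closer to WT: H2-K1 at 1.18-fold, Tapbp at 1.14-fold, Psmb10 at 1.09-fold, H2-D1 at 1.05-fold and B2m at 0.97-fold. Psmb8 rose and was the single member to pass the test, 1 of 10 with 9 not called; of the 14853 genes tested 4.28 percent were called, 2.07 percent higher and 2.22 percent lower (edgeR's quasi-likelihood test, Benjamini-Hochberg adjusted p under 0.05). DESeq2 called 4 members higher (Psmb8, Tap1, Tap2 and Nlrc5), where it called 8.2 percent of all genes higher, and limma-voom called Psmb8 alone, with 2.11 percent of all genes higher. No member was called lower by edgeR, DESeq2 or limma-voom, where 2.22, 9.33 and 2.81 percent of all genes were, and none was lower at an unadjusted p under 0.05, where 13.9 percent of all genes were. In 9 of 10 members both NHD13 libraries lay above both WT libraries, which was so for 30.1 percent of all genes, and in no member did both lie below, as in 30.3 percent of all genes. At an unadjusted p under 0.05, 5 of 10 members were higher, against 12.9 percent of all genes. The median log2 fold change of the 10 members was 0.32 and that of all genes tested was 0.00.

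**Figure D1:**
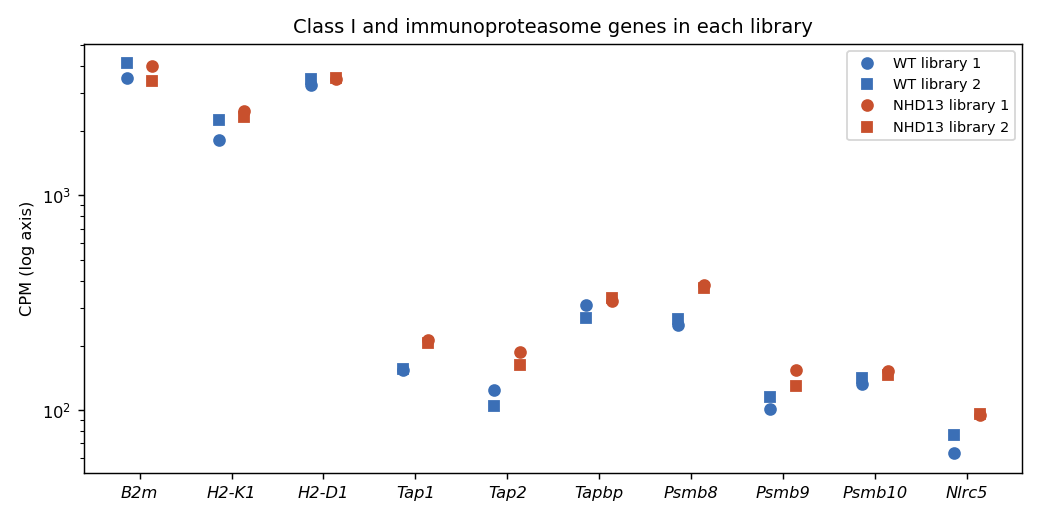
Level of each of the 10 genes in each library, in CPM on a log axis; circles are library 1 and squares library 2 of each group, and no error bar is drawn. The NHD13 points lie above the WT points for 9 genes by small steps, and those of B2m overlap with WT.

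Transcripts of the light and heavy chains of the class I molecule were among the most abundant in these cells. Per kilobase of transcript, B2m was at 4441 CPM in WT, rank 5 of the 14597 tested genes with a known length, H2-D1 at 1601 (rank 35) and H2-K1 at 1253 (rank 53). B2m, the light chain shared by all class I molecules, was at 3521 and 4118 CPM in WT and 4012 and 3411 in NHD13. The groups overlapped fully, and the log2 fold change was -0.04 ± 0.12 (SE; edgeR adjusted p 0.865); it was 0.08 without WT library 2 and also 0.08 without NHD13 library 2. H2-D1, a classical heavy chain, was at 3255 and 3476 CPM in WT and 3499 and 3538 in NHD13. All 4 libraries lay close together, with a log2 fold change of 0.06 ± 0.08 (adjusted p 0.636). H2-K1, the other classical heavy chain, was at 1818 and 2238 CPM in WT and 2471 and 2328 in NHD13. The NHD13 libraries were the higher ones, but the gap to WT library 2 was smaller than the gap within WT, and the log2 fold change of 0.24 ± 0.12 was not called (adjusted p 0.275).

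Class I heavy chain genes are near copies of each other, and how reads with several alignments were counted is not given in the sources used here. The row for H2-L had 0.744 to 0.752 of the H2-D1 count in all 4 libraries. H2-Q7 and H2-Q9 had the same counts throughout, and H2-Q6 and H2-Q8 differed by at most 1 count in a library. In GENCODE M21 transcripts, 6.71 percent of the 75-base windows of H2-D1 and 1.55 percent of those of H2-K1 occurred in another class I gene, against 24.9 percent for H2-Q6 and 25 percent for H2-T22. H2-L, H2-Q8, H2-Q9 and H2-T9 were not in that comparison, so windows shared with them are not counted. With all 32 class I heavy chain rows summed to 1 feature, the log2 fold change was 0.10 ± 0.08 (edgeR adjusted p 0.487), and Psmb8 remained called. That sum holds H2-L beside H2-D1, and both rows of near-identical pairs such as H2-Q7 and H2-Q9. A read shared between rows may thus be counted more than once in it.

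Among the other heavy chain genes, 18 of 29 in the tables passed the filter. By edgeR 1 was called lower and none higher, beside 2.22 and 2.07 percent of all genes. At an unadjusted p under 0.05, 3 were higher and 1 lower, beside 12.9 and 13.9 percent. DESeq2 called 2 higher and 1 lower, beside 8.2 and 9.33 percent, and limma-voom 0 higher and 1 lower. The 2 called higher by DESeq2, also among the 3, were H2-Q7 and H2-Q9, whose counts were the same. Rows with the same or nearly the same counts are thus counted here as separate genes. H2-T3, which encodes the nonclassical thymus leukemia antigen, fell by 4.91 ± 0.45 on the log2 scale (edgeR adjusted p 0.0186). It was at 6.64 and 5.50 CPM in WT and at 0.146 and 0.245 in NHD13, where it had 5 and 12 counts, so the transcript was nearly lost from both NHD13 libraries. None of its 75-base windows occurred in another class I gene. H2-Q7 and H2-Q9, which could not be separated, had 0.36 ± 0.11 (adjusted p 0.126, or 0.0386 by DESeq2). H2-T23, which encodes Qa-1 that presents leader peptides of other class I molecules to NK receptors, had -0.22 ± 0.14 (adjusted p 0.377).

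Both subunits of the TAP transporter, which carries peptides into the endoplasmic reticulum, were higher in both NHD13 libraries. Tap1 was at 154 and 156 CPM in WT and 213 and 206 in NHD13. The groups were tight and well apart, with a 1.35-fold difference, a log2 fold change of 0.44 ± 0.08 and an edgeR adjusted p of 0.0625, just outside the threshold (0.000615 by DESeq2). Tap2, the partner subunit, was at 124 and 105 CPM in WT and 186 and 161 in NHD13. It differed 1.52-fold, the largest difference among the members, with a log2 fold change of 0.61 ± 0.13 (adjusted p 0.0730, or 0.00172 by DESeq2). With a stricter filter, of 1 CPM in both WT or both NHD13 libraries, edgeR called Tap1 (adjusted p 0.0495), and without any filter it called Tap2 (0.0393). Tapbp, which encodes tapasin, the bridge between TAP and the heavy chain, was at 310 and 268 CPM in WT and 323 and 333 in NHD13. Its NHD13 libraries lay just above WT library 1, and the log2 fold change of 0.18 ± 0.10 was not called (adjusted p 0.326).

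Of the immunoproteasome subunits, Psmb8 rose and the other two had smaller differences. Psmb8, which replaces Psmb5 and cuts after hydrophobic residues, was at 248.7 and 264 CPM in WT and 384 and 370 in NHD13. It was 1.47-fold higher, with a log2 fold change of 0.56 ± 0.09 and an edgeR adjusted p of 0.0437 (4.65e-06 by DESeq2, 0.0424 by limma-voom). The 2 NHD13 libraries lay closer to each other than to WT. Summed dendritic cell and monocyte markers (289 and 111 CPM against 21.3 to 41.7) and B cell markers (94.5 and 105 against 76.5 to 84.6) were also above WT in both NHD13 libraries. Single genes of these lists went both ways: 6 of 9 tested dendritic cell and monocyte genes and 5 of 8 tested B cell genes had a log2 fold change above 0. Summed late granulocyte markers were above WT most in NHD13 library 1, and all 10 tested late granulocyte genes had a log2 fold change above 0. Summed T and NK cell markers were above WT in NHD13 library 2 (271 CPM) and below it in library 1 (60.4, against 70.7 to 75.4). Of 12 tested T and NK cell genes, 7 had a log2 fold change above 0. The part of such cells in the Psmb8 difference was not tested. The call did not hold when 1 library was left out: the adjusted p was 0.267 without WT library 1, 0.214 without WT library 2, 0.12 without NHD13 library 1 and 0.0591 without NHD13 library 2, with log2 fold changes of 0.51 to 0.60. With the transcripts of each gene summed it was 0.0584. Without either WT library edgeR called 0 genes of any kind (2332 and 2605 at an unadjusted p under 0.05), so no call reported here, of any gene, held in those fits.

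Psmb9, which replaces Psmb6, was at 102 and 115 CPM in WT and 154 and 130 in NHD13. NHD13 library 1 stood highest, and the log2 fold change of 0.39 ± 0.13 was not called (edgeR adjusted p 0.147, or 0.0729 by DESeq2). Psmb10, which replaces Psmb7 and, unlike the others, lies outside the MHC, was at 133 and 141 CPM in WT and 152 and 146 in NHD13. The groups nearly touched, with 0.12 ± 0.09 (adjusted p 0.450). Nlrc5, the class I transactivator, was at 62.9 and 76.6 CPM in WT and 94.9 and 95.8 in NHD13. The NHD13 libraries were nearly equal and above both WT libraries, with a log2 fold change of 0.45 ± 0.13 (adjusted p 0.109, or 0.0315 by DESeq2). Per kilobase it was at 10.0 CPM in WT, the lowest of the members. Of the genes shown above with the paired boxes, B2m, H2-K1, H2-D1 and H2-M3 were not called by edgeR, DESeq2 or limma-voom. H2-Q7 was called higher by DESeq2 alone (adjusted p 0.0386), and H2-Aa was called lower by edgeR, DESeq2 and limma-voom. A link between Nlrc5 and these genes was not tested.

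The proteasome as a whole was close to WT. Of the constitutive catalytic subunits that the immunoproteasome subunits replace, Psmb5 had a log2 fold change of 0.23 ± 0.09 (edgeR adjusted p 0.175), Psmb6 -0.04 ± 0.09 (0.802) and Psmb7 -0.01 ± 0.10 (0.951). None of these 3 was called by edgeR, DESeq2 or limma-voom, with 1 higher at an unadjusted p under 0.05. Of 22 genes of the 19S regulatory particle, which unfolds proteins for the core, none was called by any of the 3 tools (1 higher at an unadjusted p under 0.05), the log2 fold changes ran from -0.07 to 0.26, and the median was 0.08. Psmc4 (0.26 ± 0.10) and Psmd14 (0.20 ± 0.09) had the smallest p among them. Of 12 other core subunits tested, 1 was called lower by edgeR, beside 2.22 percent of all genes, and the median was 0.08. That gene was Psma8, a core subunit best known from testis, at 23.7 and 26.5 CPM in WT and 3.26 and 6.04 in NHD13 (-2.43 ± 0.33, adjusted p 0.0362). Of 11 activators and assembly factors none was called by edgeR or limma-voom. At an unadjusted p under 0.05, 2 were higher and 1 lower, beside 12.9 and 13.9 percent of all genes. DESeq2 called 0 higher and 1 lower, beside 8.2 and 9.33 percent of all genes. Psme2, a subunit of the interferon-inducible PA28 activator, had 0.28 ± 0.09 (adjusted p 0.128), and Psmf1, an inhibitor of the proteasome, had -0.35 ± 0.09 (adjusted p 0.0953, or 0.0305 by DESeq2).

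**Figure D2:**
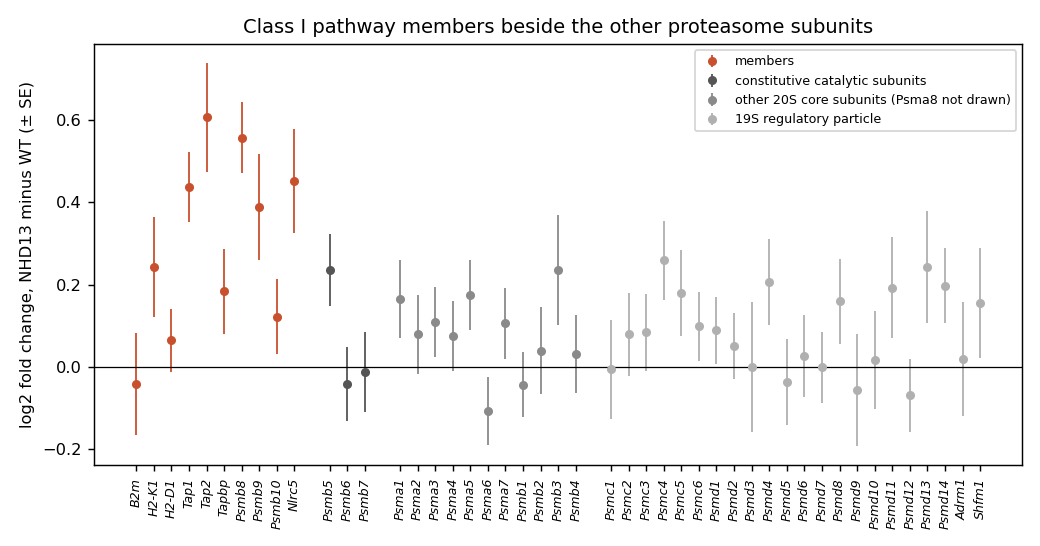
Log2 fold change of NHD13 against WT (points, with SE as bars) for the 10 members, the 3 constitutive catalytic subunits, the other core subunits and the 19S particle. Psmb8, Tap1, Tap2, Psmb9 and Nlrc5 lie between 0.39 and 0.61, and the other members at 0.24 or below. The drawn proteasome subunits outside the members lie at 0.26 or below. Psma8, at -2.43, is not drawn.

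Ratios of counts within a library do not depend on how libraries are scaled to each other. Psmb8 had 3.20 and 3.46 counts per count of Psmb5 in WT and 4.26 and 4.07 in NHD13. The log2 ratio was 1.74 ± 0.08 (SD, n = 2) in WT and 2.06 ± 0.05 in NHD13, a 1.25-fold shift with both NHD13 libraries above both WT libraries. Psmb9 had 0.517 and 0.633 counts per count of Psmb6 in WT and 0.840 and 0.706 in NHD13, a 1.35-fold shift. Psmb10 had 1.38 and 1.49 counts per count of Psmb7 in WT and 1.54 and 1.62 in NHD13, a 1.10-fold shift. All 3 ratios were thus higher in both NHD13 libraries, but 2 libraries against 2 cannot give a two-sided exact permutation p below 0.333, so these shifts are given as values. The H2-K1 to B2m ratio was 0.516 and 0.544 in WT and 0.616 and 0.682 in NHD13, while the H2-D1 to B2m ratio overlapped between groups.

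**Figure D3:**
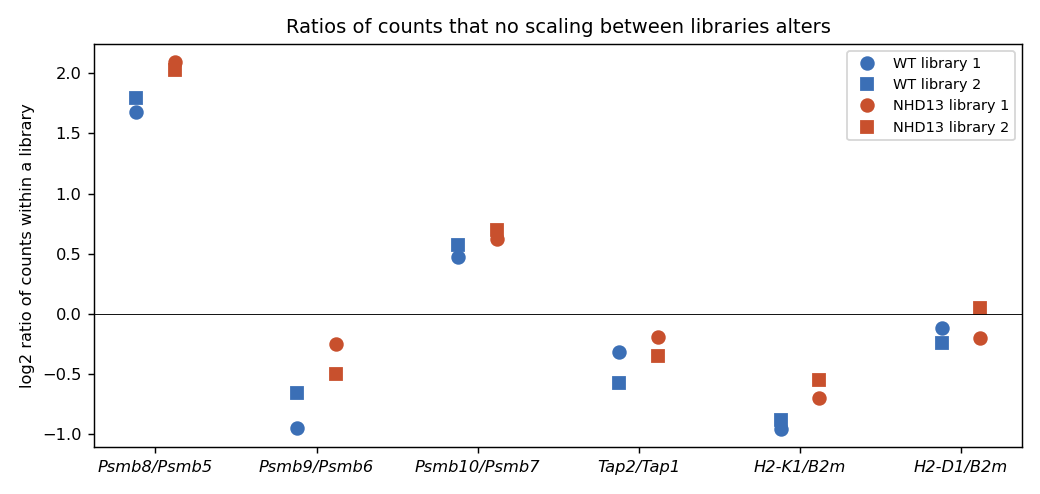
Log2 ratio of the counts of 2 genes within each library, for the 3 pairs of immunoproteasome and constitutive subunits, Tap2 to Tap1, and each heavy chain to B2m. The NHD13 points lie above the WT points for the 3 proteasome pairs and for H2-K1 to B2m, and overlap with WT for Tap2 to Tap1 and H2-D1 to B2m.

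Psmb9, Tap1, Psmb8 and Tap2 lie next to each other in the class II part of the MHC on chromosome 17, between H2-DMb1 and H2-Ob in the RefSeq gene order of GRCm38.p6. The class II genes H2-Ab1 (-1.97 ± 0.16), H2-Aa (-3.61 ± 0.11) and H2-Eb1 (-3.16 ± 0.14) fell (edgeR adjusted p 0.0141, 0.0026 and 0.0047). They were 3 of 12 tested genes of the class II list, with none called higher. Of all genes, edgeR called 2.22 percent lower and 2.07 percent higher. At an unadjusted p under 0.05, 6 of the 12 were lower and 3 higher, beside 13.9 and 12.9 percent of all genes. DESeq2 called 5 lower and 3 higher, beside 9.33 and 8.2 percent. With limma-voom 4 were lower and 0 higher, beside 2.81 and 2.11 percent. H2-DMb1, directly beside Psmb9, had -0.62 ± 0.11 (adjusted p 0.0516). H2-Ob, directly beside Tap2, was at 8.12 and 11.5 CPM in WT and 178 and 49.98 in NHD13 libraries 1 and 2. Its log2 fold change was 3.54 ± 0.68 (edgeR adjusted p 0.0627). Late granulocyte and dendritic cell and monocyte markers were also highest in NHD13 library 1. Their part in the H2-Ob difference was not tested. From Tapbp to H2-Eb2, 30 genes were tested. By edgeR Psmb8 was called higher and H2-Ab1, H2-Aa and H2-Eb1 lower, beside 2.07 and 2.22 percent of all genes. The stretch was chosen after the values were seen. Its median log2 fold change was 0.23.

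**Figure D4:**
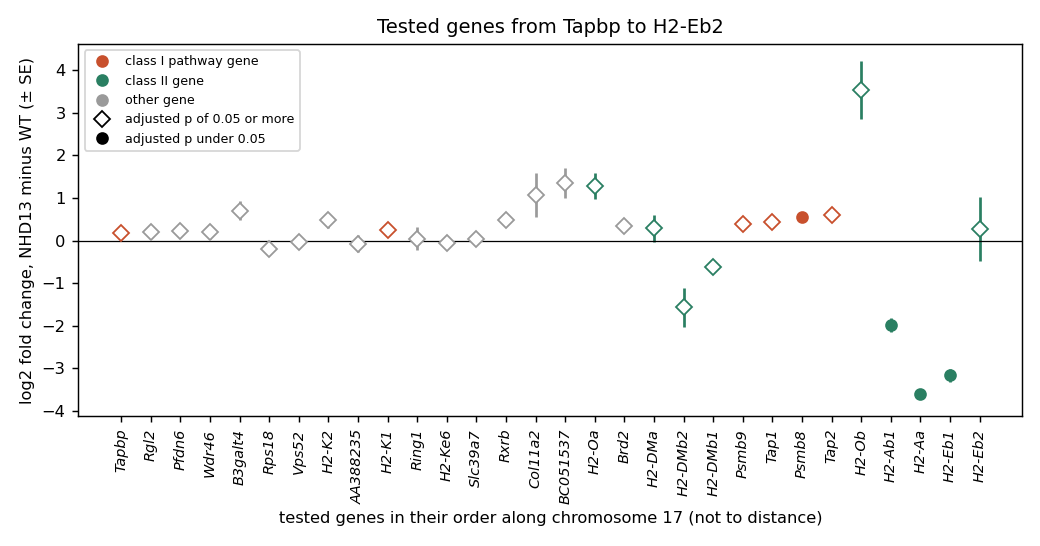
Log2 fold change of NHD13 against WT (points, with SE as bars) for the 30 tested genes from Tapbp to H2-Eb2, in their order along chromosome 17 and not to distance; filled circles passed an adjusted p of 0.05 and open diamonds did not. Psmb9, Tap1, Psmb8 and Tap2 lie at 0.39 to 0.61, a few genes away from H2-Ab1, H2-Aa and H2-Eb1 at -1.97 to -3.61.

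Of 21 other genes of peptide loading and trimming none was called by edgeR or limma-voom, and the median log2 fold change was 0.18. At an unadjusted p under 0.05, 5 were higher and 2 lower, beside 12.9 and 13.9 percent of all genes. DESeq2 called 4 higher and 1 lower, beside 8.2 and 9.33 percent of all genes. Uggt1, which checks the folding of glycoproteins including class I, had 0.57 ± 0.10 (edgeR adjusted p 0.0535, or 0.000366 by DESeq2), and Ide, an insulin- and peptide-degrading protease, had 0.35 ± 0.09 (0.0915). Class I-like molecules encoded off the MHC gave 1 call by edgeR, higher, in 8 tested genes, and none lower. Of all genes, 2.07 percent were called higher and 2.22 percent lower by edgeR. At an unadjusted p under 0.05, 1 of the 8 was higher and 3 were lower. DESeq2 called 1 higher and 3 lower, and limma-voom 1 higher and 1 lower. Ulbp1, a ligand of the NK receptor NKG2D, rose from 4.53 and 5.17 CPM to 12.3 and 11.9 (1.32 ± 0.21, adjusted p 0.0454). This call was lost with scaling by library totals (0.0502), with summed transcripts (0.0585) and without NHD13 library 1 (0.12) or 2 (0.0629). The antibody-transporting receptor Fcgrt (-1.05 ± 0.19, adjusted p 0.0532), Mr1, which presents vitamin metabolites to MAIT cells (-0.83 ± 0.16, 0.0627), and the iron regulator Hfe (-1.42 ± 0.29, 0.0663) were below WT in both NHD13 libraries and called lower by DESeq2 (adjusted p 1.26e-05, 0.00091 and 0.00315).

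Of 22 transcription factors of class I genes, 19 were not called, 1 was called higher and 2 lower, beside 4.28 percent of all genes called, and the median was -0.04. Nfkb1, a subunit of NF-kappaB, was at 111 and 111 CPM in WT and 175 and 206 in NHD13 (0.78 ± 0.11, edgeR adjusted p 0.0397). Irf2, an interferon regulatory factor that binds response elements without interferon, was at 180 and 192 CPM in WT and 128 and 114 in NHD13 (-0.62 ± 0.10, adjusted p 0.0488). Ciita, the class II transactivator, fell by 2.46 ± 0.35 (adjusted p 0.0381), from 8.53 and 7.72 CPM to 1.14 and 1.80. The Irf2 call was lost with DESeq2 size factors (0.0518), with summed transcripts (0.0663) and without NHD13 library 1 (0.0954) or 2 (0.0805). That of Nfkb1 was lost with library totals (0.0506), with summed transcripts (0.0514) and without NHD13 library 1 (0.0519) or 2 (0.0507), and that of Ciita without NHD13 library 1 (0.0757). Irf1, an interferon-induced activator of class I genes, overlapped between groups and was not called (-0.15 ± 0.14, adjusted p 0.517).

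Receptors and kinases of interferon and TNF signalling gave 2 calls higher and none lower by edgeR among 13 tested genes. Of all genes, edgeR called 2.07 percent higher and 2.22 percent lower. At an unadjusted p under 0.05, 3 of the 13 were higher and 3 lower, beside 12.9 and 13.9 percent of all genes. DESeq2 called 2 higher and 2 lower, and limma-voom 2 higher and 0 lower. Ifngr1, the ligand-binding chain of the interferon gamma receptor, was at 173 and 199 CPM in WT and 319 and 351 in NHD13 (0.85 ± 0.11, edgeR adjusted p 0.0336). Tyk2, a kinase of the type I interferon receptor, rose by 0.71 ± 0.10 on the log2 scale (adjusted p 0.0381). Of 36 interferon-stimulated genes, 3 were called higher and none lower by edgeR, with a median log2 fold change of 0.12. At an unadjusted p under 0.05, 5 were higher and 4 lower, beside 12.9 and 13.9 percent of all genes. DESeq2 called 4 higher and 2 lower, and limma-voom 3 higher and 0 lower. The genes called by edgeR were Ifi27 (1.46 ± 0.11), Oas2 (2.11 ± 0.28) and Oas3 (0.95 ± 0.12). Ifi27 went from 72.7 and 75.1 CPM to 218 and 188. Oas2 and Oas3 are oligoadenylate synthetase genes, whose products sense double-stranded RNA. The other 33 genes were not called by edgeR. Without NHD13 library 1 the adjusted p was 0.0734 for Ifngr1, 0.107 for Tyk2, 0.113 for Oas2 and 0.0947 for Oas3, and without NHD13 library 2 it was 0.0567 for Ifngr1, 0.0653 for Oas2 and 0.0559 for Oas3.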

How the data were processed

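Per the labels' protocols, Trizol extracts of sorted marrow stem cells were made into cDNA with a SMARTer low-input kit and read from both ends on an Illumina HiSeq. Bowtie 0.12.2 and mouse build mm9 are named in the submitters' processing notes. The authors deposited raw counts, whole numbers for each RefSeq transcript. How reads were counted, by strand or with several alignments, is not given in the sources used here.

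All genes were tested with edgeR 4.0.16 (R 4.3.3): default filter on low counts, TMM scaling, robust quasi-likelihood test between the groups with all 4 libraries, Benjamini-Hochberg adjustment over 14853 genes. Calls use an adjusted p under 0.05; "rose" and "fell" are used of called genes only. CPM are counts scaled by TMM-normalised library totals. Standard errors were derived from the fold change and the F statistic. Tap1 and Tapbp had 2 transcripts each with nearly or wholly the same counts. Transcript lengths came from GENCODE M21 records paired with the RefSeq accession. Variation between the libraries of a group, which may be technical, averaged 26.9 percent (edgeR's biological coefficient of variation). The test was tried on simulated counts first.

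The members and lists were chosen with earlier results of these data known. Named genes are all members and, per pathway list, up to 4 called genes or the 2 of smallest p; Psmb7, Fcgrt, Mr1, Hfe, H2-Q7, H2-Q9, H2-L, H2-T23, H2-DMb1, H2-Ob, Hspa1a, Tubb5, Ier3 and Irf1 were named after their values were seen. A gene of these lists is not reported here. Alternatives were other scalings, filters and tools (DESeq2 1.42.0, limma-voom of limma 3.58.1), the replicate number as a block, each library left out, summed transcripts and summed heavy chain rows; a crossed block was added after seeing the data.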

Additional observations from a re-analysis of the deposited data

How the results depend on the processing

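By edgeR on all 4 libraries, 1 member was called higher, 636 genes were called in all, and 14 genes of the other pathway lists were called. With no filter on low counts these were 2 and 1138 (members and all genes); with the filter at 1 CPM in both WT or both NHD13 libraries they were 2 and 1066; with summed transcripts 0 and 402. DESeq2 called 4 members, 2604 genes and 35 list genes. With the replicate number of the titles as a block, edgeR called 0 members (4 at an unadjusted p under 0.05), 107 genes and 4 list genes, with an adjusted p of 0.112 for Psmb8; the labels do not say that a number marks a shared animal or day. Deviations of same-numbered libraries correlated at -0.206 across genes, and with crossed numbers as a block edgeR called 1 member and 647 genes. Leaving out each library in turn gave 0 members in every fit, 0 to 990 genes and 0 to 15 list genes; where a group has 1 library, its spread is assumed to be that of the other group. No member was called lower under any setting run. The shift in the Psmb8 to Psmb5 log2 ratio was 0.27 to 0.38 over these fits, that of Psmb9 to Psmb6 0.28 to 0.57 and that of Psmb10 to Psmb7 0.08 to 0.19. B2m was the member that changed sign, to 0.08 without WT library 2 (0.0777) and without NHD13 library 2 (0.0764), with a lowest value of -0.16; the ranges were -0.096 to 0.0074 for Psmb6 (highest without WT library 1), -0.075 to 0.061 for Psmb7 (without NHD13 library 2) and -0.33 to 0.011 for Irf1 (without NHD13 library 1). The causes were not tested. Psmb8 was called in 8 of 14 alternatives. The number of libraries limits what can be called; each member had at least 2734 counts in every library.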

Other observations

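Across the MHC from Tapbp to H2-M2 in RefSeq gene order, 138 genes were tested, and the median log2 fold change was 0.12. By edgeR 3 of them were called higher and 5 lower, beside 2.07 and 2.22 percent of all genes. Besides the genes named above, the calls were the heat shock gene Hspa1a (1.52 ± 0.25), the tubulin gene Tubb5 (0.54 ± 0.08) and the stress response gene Ier3 (-1.10 ± 0.12). The stretch was chosen after the values were seen.

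The genes whose profile over the 4 libraries lay nearest to the mean profile of the 10 members, by the root mean square difference of centred log2 CPM among 9986 other genes of average log2 CPM of at least 3, were Nvl (0.0042), Smarca5 (0.0068), Pnisr (0.0086), Snapc3 (0.0090) and Phkg2 (0.0096). The mean profile of the members was -0.19 and -0.11 in WT and 0.19 and 0.11 in NHD13.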
